A study of Arabidopsis thaliana with 36 samples.

Results

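The genes described here are the 102 Arabidopsis genes whose transcripts were low in every one of 11 lines that the labels call mutants of SWI/SNF subunit genes. A gene was a member if its mean over the 3 wild-type libraries was at least 50 normalised reads and its mean in each mutant was at most 0.7 times the wild-type mean. Of 32548 genes in the tables, 17543 had a wild-type mean of at least 50, and the 102 members were 0.581% of these. The opposite rule, a mean at least 1/0.7 times wild type in all 11 mutants, held for 13 genes. The members were selected on the mutant to wild-type ratios, so those ratios are given as a description with no test, and tests are given only for differences between mutants. The mutant libraries also entered the choice, since no member can exceed 0.7 times wild type in any mutant mean.

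RNA was taken from whole seedlings at 12 days of age and sequenced as single 50-bp reads. The plants had grown on MS plates in long days, 16 h light at 23 °C alternating with 8 h dark at 22 °C. Each genotype had 3 libraries, 36 in all. The genotypes were wild type, brm-/-, brd1-/-brd2-/-brd13-/- (brd1213), brip1-/-brip2-/- (brip12), syd-/-, swi3d-/-, sys1-/-sys2-/-sys3-/- (sys123), minu1-/-minu2-/- (minu12), pms2a-/-pms2b-/- (pms2ab), swp73b-/-, bcl7a-/-bcl7b-/- (bcl7ab) and an3-/-. The labels name no allele, do not say whether the libraries of a genotype came from separate plants, and record no treatment other than the mutations. From knowledge of the study, brm, brd1213 and brip12 stand for the BAS class of complex, syd, swi3d and sys123 for the SAS class, and minu12 and pms2ab for the MAS class, while the other mutants (an3, bcl7ab, swp73b) were given no class. The 11 mutants share the same 3 wild-type libraries, so their ratios to wild type are not independent of each other. In whole seedlings, fewer cells of a type and less RNA per cell cannot be told apart.

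SWI/SNF complexes are large assemblies that use the energy of ATP to slide or evict nucleosomes, which opens DNA to transcription factors. In plants, the ATPases BRM, SYD and the MINU pair sit in complexes that share some subunits and differ in others, and they are known for roles in leaf and flower development, hormone responses and stress. Many genes induced quickly by drought, cold, wounding or pathogens are short, have few introns and are controlled through boxes close to their start, such as the G-box and the abscisic acid response element, both bound by bZIP factors, and the CGCGTT box, bound by calmodulin-binding CAMTA factors.

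The libraries differed in ways that touch the set. Recovered reads per library ranged from 21070583 to 23761910, and the correlation of log2 values between libraries of a genotype was 0.977 to 0.994. Wild-type library 1 held the highest wild-type value of 57 members, library 2 of 24 and library 3 of 21, whereas over all genes with a wild-type mean of at least 50 the shares were 28.9%, 37.0% and 34.1%. Without wild-type library 1 the rule gave 93 genes, and 79 of the 102 were among them. Members named below that were not among the 79 are RRTF1, DDF1, JAZ1, LOX3, LOX4, AT4G27657, AT4G29780, AT5G15190, CTF2B, CAMBP25, MYB122, NIMIN-2 and NUDT12. The libraries labelled syd stood further apart from each other. The median member was at 0.749 times the wild-type mean in syd library 1, at 0.488 in library 2 and at 0.301 in library 3, and 43, 94 and 102 members respectively were at most 0.7 times wild type there. Without syd library 1 the rule gave 141 genes, and without syd library 3 it gave 70. The SYD transcript itself was at 165% of wild type in the libraries labelled syd, the AN3 transcript at 102% in those labelled an3, and BRD1 at 200% in brd1213, so for these loci the transcript level does not check the label. The other mutated genes that were measured lay between 0.149% of wild type (BRD13) and 84.3% (SYS3), the loci of pms2ab were not analysed here, and none of the 17 measured was a member. Shoot mesophyll markers were abundant in every library, with a summed level of 494382 to 752947 in wild type, but all 3 bcl7ab libraries were above that range (815774 to 941759) and all 3 pms2ab libraries below it (384729 to 473431). Summed seed markers were 12.5 to 20 in wild type. All 3 libraries were above that range in pms2ab (827.6 to 2266), minu12 (124.1 to 8570), brm (91.2 to 898.8) and brd1213 (51.4 to 624.5). The same held in swp73b (27.5 to 4994), sys123 (28.4 to 123.1) and bcl7ab (20.9 to 2198). It did not hold in syd (18.6 to 46.3), swi3d (2.2 to 137), brip12 (11.7 to 15.1) and an3 (4.1 to 5.6). Summed flower and pollen markers were 126 to 218.6 in wild type. They were highest in brm (1512 to 2363) and swp73b (1524 to 2165), and also above the wild-type range in pms2ab (915.2 to 1116), syd (851.2 to 1013), minu12 (812.9 to 881.5), brd1213 (617.3 to 716.4), swi3d (380.5 to 540.2) and brip12 (309.7 to 388.7). Summed root markers were 3111 to 4347 in wild type. All 3 swi3d libraries were above that range (4432 to 4977). The ranges of swp73b (4291 to 5555), minu12 (4014 to 4727) and brip12 (4008 to 4457) reached above it. Those of brm (2922 to 3150) and brd1213 (3078 to 4047) reached below it, and the other mutants stayed within it. The part of these cell types in the levels of the members was not tested.

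How low the members were varied among them. The median over members of their median mutant ratio was 0.347. The largest ratio over the 11 mutants was at most 0.5 in 13 members and above 0.6 in 64, and the smallest was at most 0.1 in 20. All 33 mutant libraries lay below all 3 wild-type libraries in 55 members, a pattern found in 124, or 0.707%, of the genes with a wild-type mean of at least 50. The rule itself favours this pattern in members, so the count is no separate sign of low levels. Membership held in each of 36 sets that left out 1 library for 47 members. The 3 members just inside the limit were AT5G15190 at 0.6978 in syd, CTF2B at 0.6983 in brip12 and LOX4 at 0.6992 in syd. The 3 genes just outside were NADK1 at 0.7001 in syd, AT4G36500 at 0.7009 in syd and AT4G15150 at 0.7014 in an3.

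**Figure D1:**
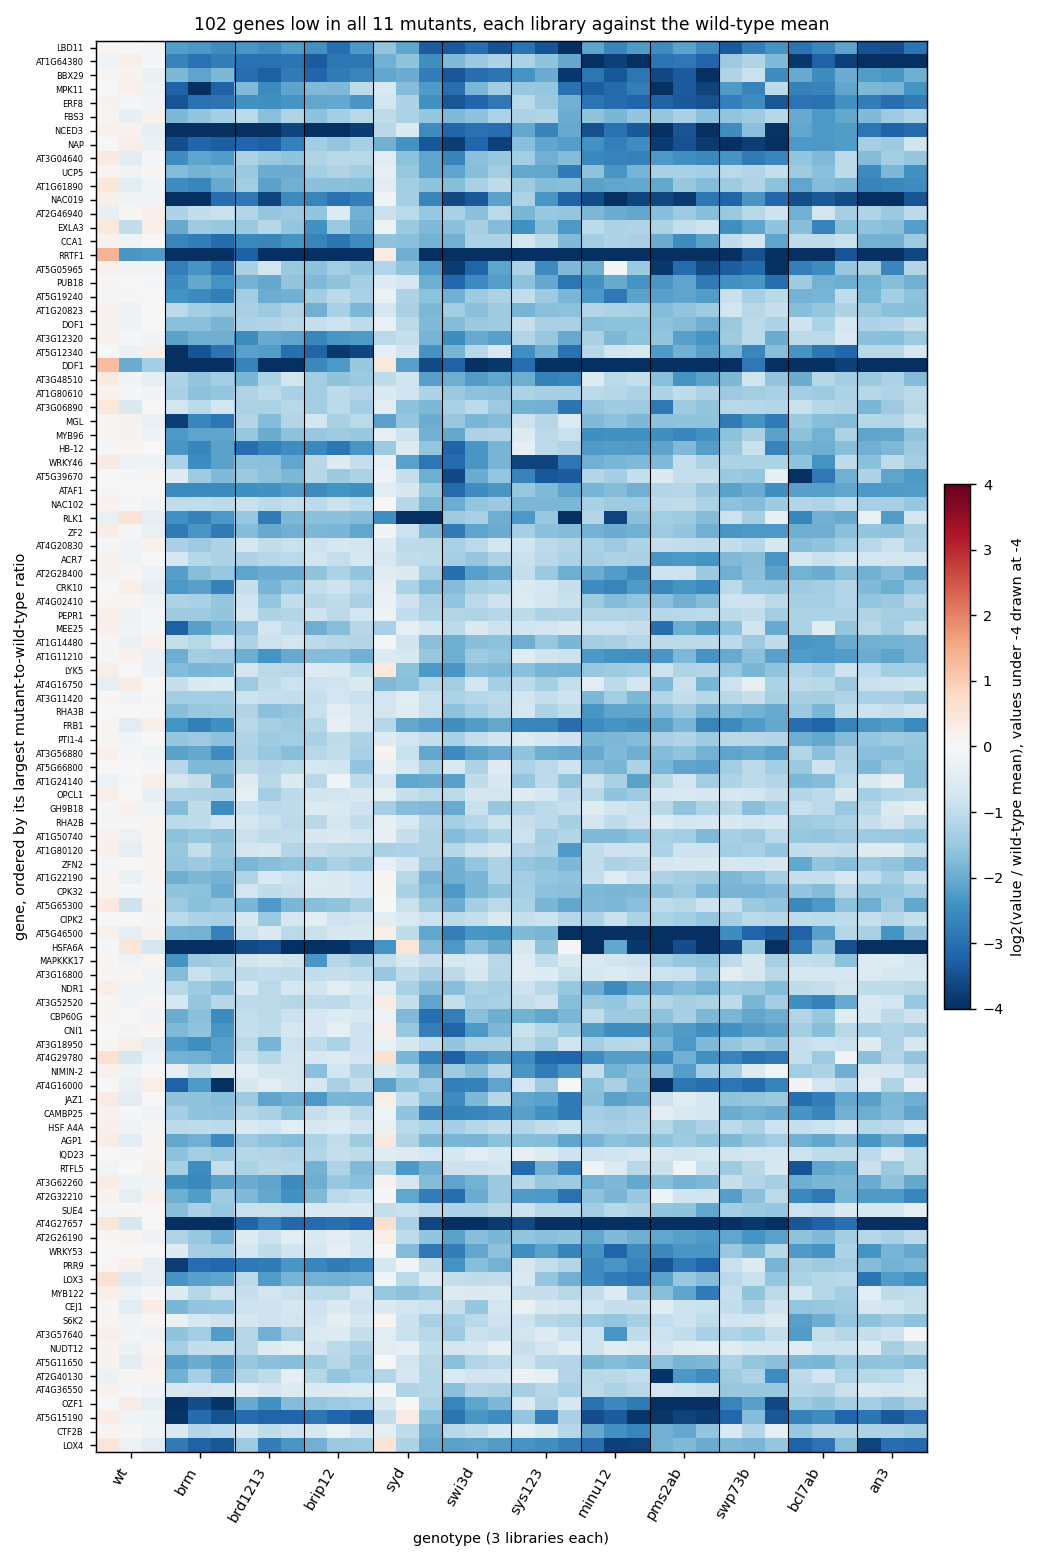
Heat map of the 102 genes (rows, ordered by their largest mutant ratio, with the smallest at the top) in 36 libraries (columns, 3 per genotype). Colour is the log2 ratio of each library to the wild-type mean; blue runs through all mutants, and syd library 1 is the palest mutant column.

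By role, 7 members were AP2/ERF factors, 4 were NAC factors, 5 were WRKY, MYB or homeobox factors, 2 were heat shock factors and 6 were zinc finger, LOB domain or other nucleic acid-binding factors. The other members held 2 clock genes, 4 genes of jasmonate synthesis and repression, 1 of abscisic acid synthesis, 3 of salicylic acid defence, 7 receptor or receptor-like kinases, 7 intracellular kinases and phosphatases, 4 calcium or calmodulin proteins, 6 ubiquitin ligases or F-box proteins, 6 cell wall genes, 10 of metabolism or transport and 28 with another or no known role. The median of the members' median ratios was 0.119 for the abscisic acid synthesis gene, 0.141 for the AP2/ERF members, 0.196 for the NAC members and 0.498 for the intracellular kinases and phosphatases. The AP2/ERF members include RRTF1 (median ratio 0.029) and DDF1 (0.06), whose wild-type means rest on wild-type library 1. The other AP2/ERF members had median ratios of 0.128, 0.141, 0.471, 0.474 and 0.574, so the low family median leans on RRTF1 and DDF1. These roles were assigned by hand after the members were known. Symbols and gene structures came from the RefSeq annotation of TAIR10.1, which held all 102 members and gave 60 of them a symbol.

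Members more often had a single exon than other genes, and their transcripts were somewhat shorter at the median. In that annotation 42 of 102 members, or 41.2%, had a single exon, against 13.2% of 17411 annotated genes with a wild-type mean of at least 50. The median number of exons was 2 in members and 5 in those genes, and the median transcript length was 1560 and 1781 bases. Transcript lengths overlapped widely, with quartiles of 1159 and 2103 bases in members and 1311 and 2374 in those genes. Among the 79 members kept without wild-type library 1, 39.2% had a single exon. Members were spread over the chromosomes, with 26, 19, 21, 15 and 21 on chromosomes 1 to 5, and no 2 members were adjacent. The nearest pair was PRR9 and CCA1, which lie 4 annotated genes apart on chromosome 2.

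Motifs were searched on both strands in the 250 bases before each annotated start. The G-box, CACGTG, was found in 20 members, or 19.6%, against 7.48% of genes with a wild-type mean of at least 50 and 6.46% of all protein-coding genes. The core of the abscisic acid response element, ACGTGTC, was found in 12 members, or 11.8%, against 4.28% and 3.66%. These motifs share letters: 11 members held both, and in 10 of them the matches overlapped. The CGCGTT box was found in 11 members, or 10.8%, against 2.75% and 2.58%. Among the 79 members kept without wild-type library 1 the G-box share was 19.0% and the CGCGTT share 6.33%. The site II element, TGGGCC, known from genes of ribosomes and growth, was found in 3 members, or 2.94%, against 17.1% and 13.6%. Shares were closer for the W-box TTGACC (15.7% of members against 12.0% of genes with a wild-type mean of at least 50), the drought element core CCGAC (14.7% against 13.1%), TGTCTC (8.82% against 10.5%), GAGAGA (18 members, against 18.9%) and TATAAA (51.0% against 46.1%). The heat shock core GAANNTTC was found in 16.7% against 9.12%, CATGTG in 18 members against 11%, the evening element core AATATCT in 15.7% against 10.3% and the GCC-box GCCGCC in 2.94% against 1.93%. A match is a description of these letters, not a binding site or a cause.

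**Figure D2:**
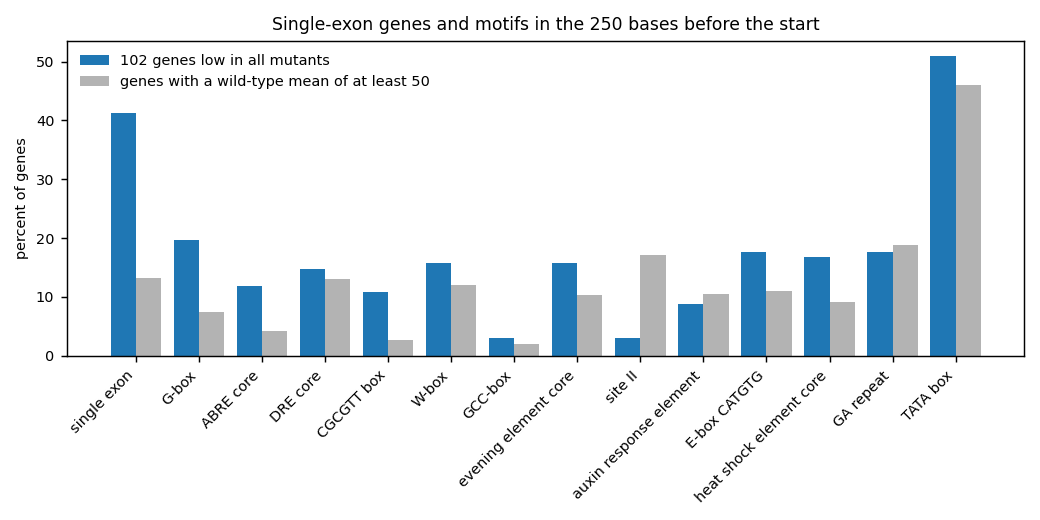
Percent of genes with a single exon and with each motif in the 250 bases before the start, for the 102 genes (blue) and for genes with a wild-type mean of at least 50 (grey). The single-exon bar stands at 41.2% against 13.2%, the G-box bar at 19.6% against 7.48% and the site II bar at 2.94% against 17.1%.

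The upstream sequences of 5 members are shown because they cover the patterns found: no match, overlapping G-box and abscisic acid core, and CGCGTT. Each is the 250 bases before the annotated start, 5′ to 3′ on the strand of the gene, in TAIR10.1 coordinates, and capitals mark matches to the G-box, the abscisic acid core and the CGCGTT box.
LBD11 (chr2:12188294-12188543, minus strand): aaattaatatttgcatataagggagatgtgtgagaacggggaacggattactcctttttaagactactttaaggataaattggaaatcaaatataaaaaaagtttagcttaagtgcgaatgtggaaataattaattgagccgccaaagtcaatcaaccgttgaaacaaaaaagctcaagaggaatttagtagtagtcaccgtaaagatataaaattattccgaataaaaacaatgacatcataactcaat
NAC019 (chr1:19698483-19698732, minus strand): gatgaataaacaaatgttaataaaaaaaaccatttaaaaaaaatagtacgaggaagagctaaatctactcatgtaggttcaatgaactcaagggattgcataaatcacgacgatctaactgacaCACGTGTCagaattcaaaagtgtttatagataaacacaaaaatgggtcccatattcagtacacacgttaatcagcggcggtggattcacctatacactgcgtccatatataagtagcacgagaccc
FBS3 (chr4:2566933-2567182, plus strand): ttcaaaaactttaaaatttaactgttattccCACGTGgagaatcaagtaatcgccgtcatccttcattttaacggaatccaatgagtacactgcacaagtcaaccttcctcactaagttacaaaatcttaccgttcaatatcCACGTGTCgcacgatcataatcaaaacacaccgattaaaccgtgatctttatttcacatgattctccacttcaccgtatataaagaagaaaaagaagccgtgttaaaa
CCA1 (chr2:19245341-19245590, plus strand): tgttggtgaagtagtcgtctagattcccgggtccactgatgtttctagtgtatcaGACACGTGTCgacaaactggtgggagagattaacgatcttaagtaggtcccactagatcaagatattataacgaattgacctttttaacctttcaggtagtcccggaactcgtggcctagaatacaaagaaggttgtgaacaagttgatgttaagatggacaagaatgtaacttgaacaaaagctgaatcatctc
EXLA3 (chr3:16892452-16892701, plus strand): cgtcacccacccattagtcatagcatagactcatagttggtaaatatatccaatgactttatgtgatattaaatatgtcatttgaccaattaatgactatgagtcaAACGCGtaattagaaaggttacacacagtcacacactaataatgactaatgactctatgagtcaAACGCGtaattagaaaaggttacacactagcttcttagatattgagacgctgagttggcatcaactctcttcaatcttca
In NAC019, FBS3 and CCA1 a G-box and an abscisic acid core overlap, and CCA1 carries the core on both strands in 1 palindromic block. In EXLA3 the CGCGTT box occurs at 2 places within a repeated stretch. LBD11, the member with the smallest largest ratio, has none of these in the window. In all, 72 members had none of the 3 motifs.

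LBD11 encodes a LOB domain transcription factor, a plant family of developmental regulators. Its level was 299, 295 and 265 normalised reads in wild-type libraries 1 to 3 (286.3 ± 18.5, SD, n = 3). In sys123, the lowest mutant, it was 37.2, 26.1 and 16.6, and in the libraries labelled syd, the highest, it was 95.2, 67.6 and 28.3. No mutant library reached the wild-type range, and the mean ratios ran from 0.093 to 0.222.

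Among the AP2/ERF factors, a family of stress and ethylene regulators, AT1G64380 had 745, 993 and 796 normalised reads in wild type. It had 28.7, 49.8 and 41.9 in an3 and 309, 364 and 247 in swp73b, the highest mutant. ERF8, a family member with a repressor motif, had 1498, 1320 and 1272 normalised reads in wild type, 146, 134 and 122 in pms2ab and 810, 577 and 255 in the libraries labelled syd. For both genes every mutant library lay below every wild-type library. RRTF1, a redox-responsive factor, and DDF1, a relative of the cold-response CBF factors, behaved differently. RRTF1 had 211, 16.1 and 16.9 normalised reads in wild type and DDF1 had 268, 28.6 and 43.9, so library 1 set their wild-type means. RRTF1 reached 103 and DDF1 152 in syd library 1, above wild-type libraries 2 and 3. Without wild-type library 1 the largest ratio was 2.58 for RRTF1 and 1.72 for DDF1, and neither remained a member.

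The NAC members are factors that act in abscisic acid and jasmonate responses and in leaf ageing. NAC019 had 484, 363 and 375 normalised reads in wild type, 19.1, 17.3 and 36.8 in an3 and 370, 159 and 65.4 in the libraries labelled syd. Its syd library 1 fell within the wild-type range, and the other 32 mutant libraries lay below it. NAP, a driver of leaf senescence, had 813, 978 and 683 in wild type, 45.2, 61.0 and 37.7 in swp73b and 326, 300 and 473 in an3, with no overlap between mutant and wild-type libraries. ATAF1 had 3436, 3330 and 3317 in wild type, 395, 597 and 671 in swi3d and 2434, 2160 and 1174 in the libraries labelled syd, again with no overlap. NAC102 ran from 0.281 times wild type in sys123 to 0.577 in syd, where library 1, at 3128 normalised reads, fell within the wild-type range.

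NCED3 encodes the enzyme of the rate-limiting step of abscisic acid synthesis in drying leaves. It had 4062, 4083 and 2782 normalised reads in wild type. In brm it had 54.1, 132 and 107, or 0.027 times wild type, and in the libraries labelled syd it had 1682, 2423 and 638, or 0.434 times. Every mutant library lay below every wild-type library. PUB18, a U-box ubiquitin ligase that dampens abscisic acid responses, was at 0.167 times wild type in swi3d and 0.525 in syd. On a list of 24 abscisic acid and dehydration genes, 23 had a wild-type mean of at least 50. NCED3 and PUB18 were the members among them, and 21 of the 23 were at most 0.7 times wild type in brm, where the share over all genes was 19.1%. In the libraries labelled syd 2 of the 23 were that low, where the share over all genes was 9.44%. Those were NCED3 and PUB18, which the rule makes low in every mutant, and the count in brm includes them. Between 0 (brm) and 7 (sys123) of the 23 were at least 1/0.7 times wild type. The share of all genes that high in each mutant was not computed. This count, and the high counts of the lists below, therefore have no background beside them.

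CCA1 and PRR9 belong to the morning part of the circadian clock, in which PRR9 represses CCA1. CCA1 had 1107, 891 and 1023 normalised reads in wild type, 161, 148 and 118 in brm and 499, 502 and 549 in bcl7ab, its highest mutant by mean. PRR9 had 692, 774 and 535 in wild type, 48.7, 80.1 and 75.3 in brm and 407, 617 and 339 in the libraries labelled syd. The mutant libraries of CCA1 stayed below wild type, whereas syd library 2 of PRR9 fell within the wild-type range. Of 19 clock genes with a wild-type mean of at least 50, between 3 (sys123) and 14 (pms2ab) were at most 0.7 times wild type, where the shares over all genes were 9.78% and 22.7%, so the count in sys123 was near the background. Between 0 (minu12) and 6 (syd) were at least 1/0.7 times. The low counts include CCA1 and PRR9, which the rule makes low in every mutant. The hour at which seedlings were collected is not in the labels, so clock phase and level cannot be told apart.

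JAZ1, a repressor of jasmonate responses, had 3604, 2096 and 2873 normalised reads in wild type, 353, 420 and 684 in bcl7ab and 3371, 1434 and 916 in the libraries labelled syd. LOX3 and LOX4, lipoxygenases of jasmonate synthesis, were lowest in minu12 at 0.150 and 0.091 times wild type and highest in the libraries labelled syd. In LOX4, syd library 1 had 2060 normalised reads, above wild-type libraries 1 to 3 at 2037, 1222 and 1075. JAZ1, LOX3 and LOX4 were not members without wild-type library 1. OPCL1, a ligase that acts on jasmonate precursors, had 4133, 3502 and 2761 in wild type and ran from 0.384 times wild type in minu12 to 0.630 in pms2ab, with no overlap. Of 18 jasmonate genes with a wild-type mean of at least 50, between 5 (pms2ab) and 17 (brip12) were at most 0.7 times wild type, where the shares over all genes were 22.7% and 10.7%, so the count in pms2ab was near the background. From 0 (brm) to 7 (swi3d) were at least 1/0.7 times. The low counts include JAZ1, LOX3 and LOX4, which the rule makes low in every mutant.

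WRKY46 and WRKY53 are factors induced early in immunity and senescence. WRKY53 had 713, 721 and 716 normalised reads in wild type, which is a narrow range. It had 140, 78.1 and 125 in minu12, 450, 573 and 437 in brip12, and 723, 217 and 97.7 in the libraries labelled syd, where library 1 exceeded wild type. WRKY46 ran from 0.096 times wild type in sys123 to 0.568 in brip12, with all mutant libraries below wild type. On the list of early stress genes, 23 had a wild-type mean of at least 50, of which 3 (syd) to 21 (swp73b) were at most 0.7 times wild type, where the shares over all genes were 9.44% and 17.0%, so the count in syd was near the background. From 0 (swp73b) to 5 (brip12) were at least 1/0.7 times. The low counts include WRKY46 and WRKY53, which the rule makes low in every mutant. The salicylic acid members included CBP60G, an activator of salicylic acid synthesis genes, at 0.239 (swi3d) to 0.654 (brip12) times wild type, and NIMIN-2, a partner of the NPR1 regulator, at 0.182 (sys123) to 0.662 (swp73b). Of the 14 salicylic acid genes with a wild-type mean of at least 50, 3 (an3) to 11 (brm and sys123) were at most 0.7 times wild type, where the shares over all genes were 5.96%, 19.1% and 9.78%, and 0 (brm) to 2 (minu12) were at least 1/0.7 times. These low counts too include members that the rule makes low in every mutant, CBP60G and NIMIN-2.

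Signalling members included MPK11, a MAP kinase, with 131, 151 and 115 normalised reads in wild type, 7.63, 13.2 and 10.2 in pms2ab and 86.2, 39.4 and 27.3 in the libraries labelled syd. CPK32, a calcium-dependent kinase, had 4319, 3824 and 3843 in wild type, 821, 1135 and 1321 in swi3d and 2698, 2667 and 2333 in brip12. CRK10, a cysteine-rich receptor-like kinase, had 3981, 4665 and 3106 in wild type and 656, 753 and 667 in pms2ab. MPK11 showed no overlap, while syd library 1 of CPK32 (4200) and of CRK10 (3115) fell within the wild-type range. The most abundant member, AT3G56880, encodes a protein with a VQ motif, which is known to bind WRKY factors. It had 7182, 5989 and 5534 normalised reads in wild type, 1057, 1412 and 1559 in swi3d and 6830, 3386 and 1462 in the libraries labelled syd. Again syd library 1 alone of the 33 mutant libraries reached the wild-type range.

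The remaining members with small largest ratios were of mixed role. BBX29, a B-box zinc finger protein, ran from 0.077 (pms2ab) to 0.385 (swp73b) times wild type, FBS3, an F-box protein, from 0.231 (bcl7ab) to 0.417 (syd), and UCP5, a mitochondrial carrier, from 0.208 (sys123) to 0.482 (swp73b). AT1G61890, a MATE efflux protein, ran from 0.168 (an3) to 0.484 (syd) and AT3G04640, a glycine-rich protein, from 0.159 (minu12) to 0.453 (brip12). Of these 5, AT3G04640 overlapped, with 260 normalised reads in syd library 1 against 254 in wild-type library 2. AT5G19240, a GPI-anchored glycoprotein and 1 of the 6 most abundant members, ran from 0.170 (brm) to 0.528 (syd) with no overlap.

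**Figure D3:**
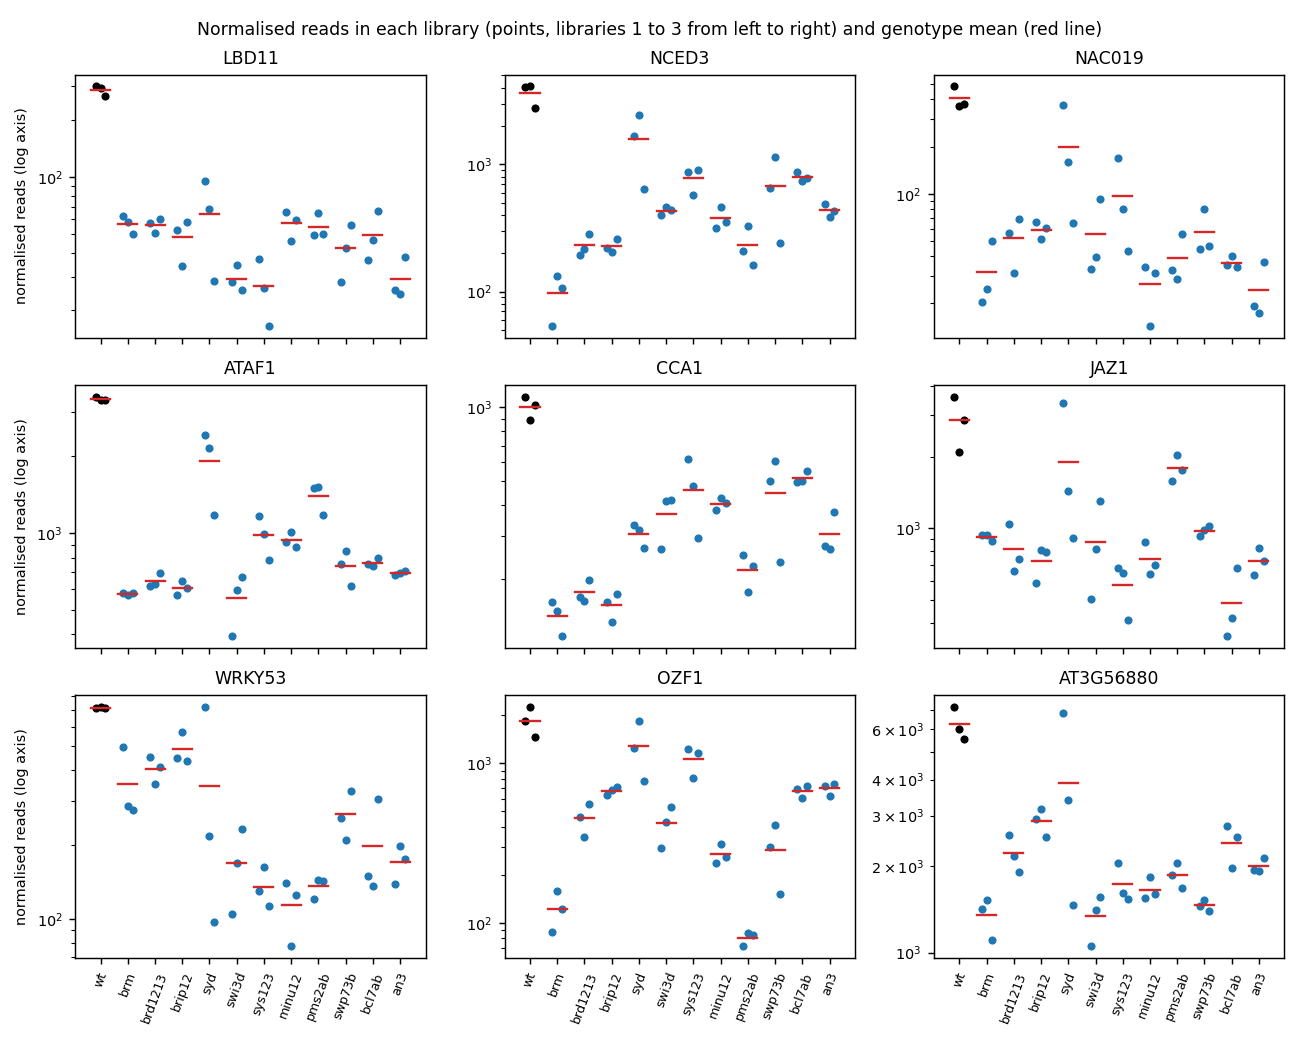
Normalised reads (log axis) of 9 members in each of 36 libraries, with black points for wild type, blue points for mutants and red lines for genotype means. LBD11, NCED3, ATAF1 and CCA1 show no overlap between wild-type and mutant libraries, and syd library 1 lies near or within the wild-type points for NAC019, JAZ1, WRKY53 and AT3G56880.

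The mutants differed in how low the members were. The median member ratio was 0.299 in pms2ab, 0.301 in brm, 0.310 in minu12, 0.342 in swi3d, 0.353 in bcl7ab, 0.357 in an3, 0.367 in sys123, 0.369 in swp73b, 0.406 in brd1213, 0.441 in brip12 and 0.547 in syd. Over all genes with a wild-type mean of at least 50 the median ratio lay near 1 in each mutant, from 0.963 in swp73b to 1.02 in an3. The share of those genes at most 0.7 times wild type was 22.7% in pms2ab, 19.1% in brm, 17.0% in swp73b, 16.9% in minu12, 10.7% in brip12, 10.3% in bcl7ab, 9.78% in sys123, 9.44% in syd, 8.85% in brd1213, 8.46% in swi3d and 5.96% in an3. The order of the members' ratios followed that of the shares only in part. At the head of both orders stood pms2ab and then brm. By contrast, an3 lowered the fewest genes, while its median member ratio was close to that of bcl7ab. Of the 102 members, 44 had their highest mutant mean in syd and 16 in brip12, while 19 had their lowest in brm, 19 in pms2ab, 14 in minu12 and 14 in sys123. The same counts over all genes were not made, so these have no background beside them. The syd means include library 1, where the median member was at 0.749 times wild type, against 0.488 and 0.301 in libraries 2 and 3. A further 69 genes met the rule in the other 10 mutants and missed it in syd, 25 missed it in brip12 and 15 in an3, and each of the other 8 mutants accounted for 1 to 11 such genes. Neighbours in this order were not separated by their libraries: the median member ratio was 0.296 to 0.328 in the libraries of pms2ab, 0.283 to 0.314 in brm and 0.293 to 0.306 in minu12.

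**Figure D4:**
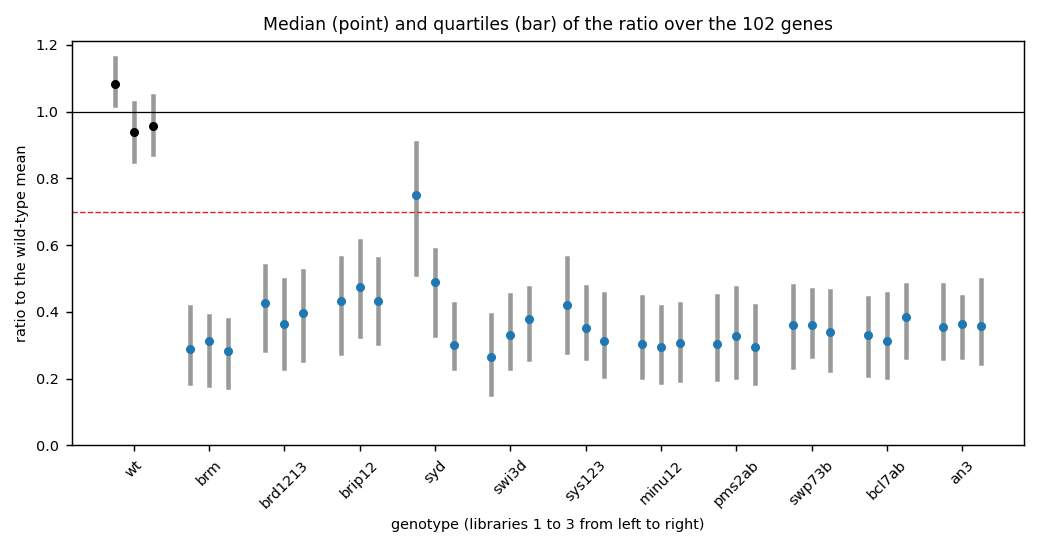
Median (point) and quartiles (grey bar) over the 102 genes of the ratio to the wild-type mean in each library, with the limit of 0.7 as a dashed line. The 3 syd libraries stand at 0.749, 0.488 and 0.301, the widest spread of any genotype, and wild-type library 1 stands at 1.08.

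Differences between mutants were tested in 1 limma fit over all 36 libraries and 23297 genes, on log2(value + 1), where a gene was called at a Benjamini-Hochberg adjusted p under 0.05. A difference among the 11 mutants was called for 99 members, where 90.6% of all genes tested and 96.9% of those with a wild-type mean of at least 50 were called. The 3 not called were AT2G46940 (limma adjusted p = 0.119), AT1G24140 (0.384) and NUDT12 (0.104). Nearly all members thus stood at different levels in different mutants, a share close to that of the other genes. In this and the comparisons below, the rule holds each mutant mean of a member to at most 0.7 times wild type. The background genes have no such limit, and this can shape the members' shares. The shares are therefore set beside the background as a description, and no conclusion is drawn from their distance to it. The ratio of the highest to the lowest mutant mean had a median of 3.03 over members, with a range of 1.45 to 198.

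BAS mutants had higher levels than SAS mutants for 21 members and lower levels for 34, where 27.4% of all genes tested were called higher and 28.8% lower (30.8% and 30.7% of those with a wild-type mean of at least 50). The members' shares were 20.6% higher, under the background, and 33.3% lower, close to it. The members called lower in BAS were led by HSFA6A, a heat shock factor, which differed by -3.07 ± 0.46 (log2 difference ± SE, limma adjusted p = 1.31e-06). HSFA6A had 75.8, 109 and 49.0 normalised reads in wild type and 0.0, 4.96 and 0.0 in brm. In the libraries labelled syd it had 15, 109 and 23.4, and in sys123 it had 50.3, 25.3 and 75.4. Libraries 1 and 3 of sys123 fell within the wild-type range, and syd library 2 stood at its top. NCED3 differed by -2.19 ± 0.23 (limma adjusted p = 2.41e-09) and PRR9 by -1.70 ± 0.14 (2.83e-11). WRKY53 was higher in BAS by 1.21 ± 0.23 (limma adjusted p = 6.17e-05), followed by AT4G29780 at 1.1 ± 0.26 (0.000651) and WRKY46 at 0.98 ± 0.24 (0.000826). AT4G29780 had 1855 normalised reads in syd library 1, against 1838, 741 and 1030 in wild-type libraries 1 to 3. WRKY53 thus stood higher on average in the BAS mutants, and NCED3 and PRR9 in the SAS mutants. Without syd library 1 the counts were 28 and 32.

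Both other classes had more members above MAS than below it. Levels were higher in BAS than in MAS for 42 members and lower for 14, where 31.7% and 32.9% of all genes tested were called (36.4% and 34.3% of those with a wild-type mean of at least 50). The members' shares were 41.2% higher, near the background, and 13.7% lower, under it. AT5G46500, annotated as VARIATION IN COMPOUND TRIGGERED ROOT growth, was higher in BAS by 3.69 ± 0.38 (limma adjusted p = 7.37e-10). It had 120, 84.4 and 118 normalised reads in wild type, 58.4, 71.6 and 50.6 in brd1213, and 0.941, 4.77 and 0.0 in pms2ab. AT4G27657 (2.0 ± 0.36, limma adjusted p = 1.41e-05) and WRKY53 (1.71 ± 0.26, 1.27e-06) followed, while AT5G12340 (-1.57 ± 0.24, 1.56e-06), CCA1 (-0.91 ± 0.16, 9.3e-06) and ATAF1 (-0.90 ± 0.12, 7.45e-08) were lower in BAS. The count lower in BAS was 8 without minu12 library 1.

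Levels were higher in SAS than in MAS for 48 members and lower for 9, where 35.3% and 34.3% of all genes tested were called (39.6% and 36.1% of those with a wild-type mean of at least 50). The members' shares were 47.1% higher, not far above the background, and 8.82% lower, under it, with the limit of the rule on member means as stated above. Without syd library 1 the member counts were 43 and 21, so the size of the imbalance rested on that library. HSFA6A (2.99 ± 0.51, limma adjusted p = 6.09e-06), AT5G46500 (2.93 ± 0.38, 4.69e-08) and OZF1, a CCCH zinc finger protein of oxidative stress responses (2.45 ± 0.18, 5.57e-13), were higher in SAS. OZF1 had 1837, 2262 and 1450 normalised reads in wild type, 71.9, 86.0 and 83.7 in pms2ab and 1248, 1843 and 778 in the libraries labelled syd. CAMBP25, a calmodulin-binding protein (-1.20 ± 0.20, limma adjusted p = 3.29e-06), AT5G39670, an EF-hand protein (-1.14 ± 0.30, 0.00112), and RTFL5, of a family of small growth-limiting peptides (-1.03 ± 0.23, 0.000227), were lower in SAS. Among the 79 members kept without wild-type library 1 the counts were 36 higher and 7 lower in SAS than in MAS, and 32 higher and 12 lower in BAS than in MAS.

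**Figure D5:**
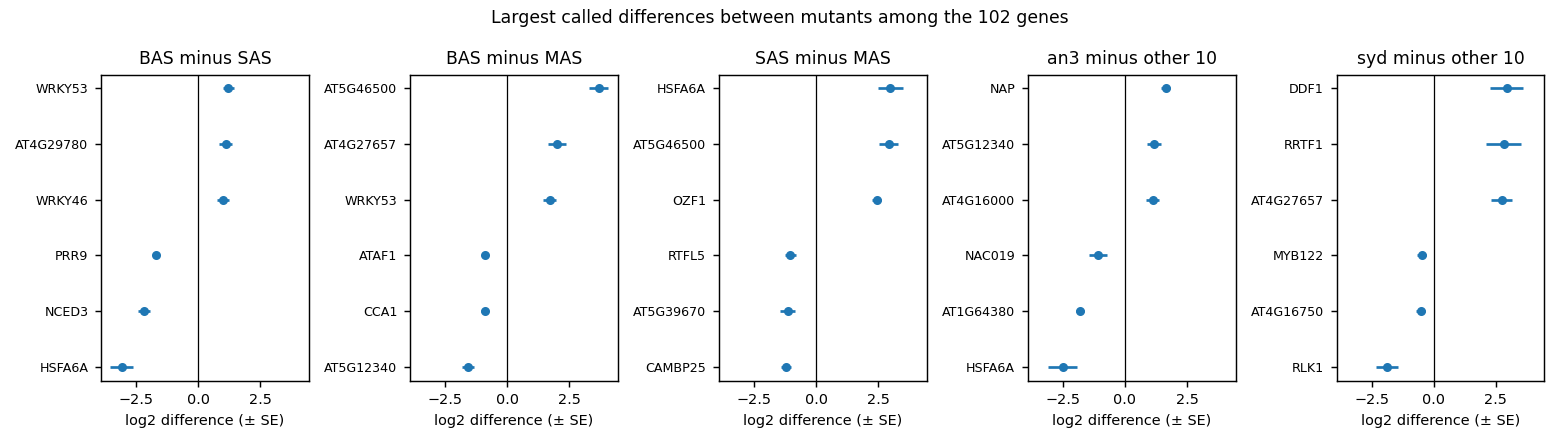
Log2 difference (point) and its SE (bar) for the 3 most positive and 3 most negative called differences among the 102 genes in each of 5 comparisons between mutants. HSFA6A stands at -3.07 in BAS against SAS and at 2.99 in SAS against MAS, and AT5G46500 at 3.69 in BAS against MAS.

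In the libraries labelled an3, 11 members were higher and 14 lower than in the mean of the other 10 mutants, where 15.6% and 14.6% of all genes tested were called (18.7% and 15.7% of those with a wild-type mean of at least 50). The members' shares were 10.8% higher, under the background, and 13.7% lower, close to it. The count lower was 6 without an3 library 1 and 9 without library 3. NAP was the most raised at 1.65 ± 0.18 (limma adjusted p = 1.38e-07), with AT5G12340 (1.18 ± 0.28, 0.00183) and AT4G16000 (1.12 ± 0.26, 0.00194) next. HSFA6A (-2.50 ± 0.59, limma adjusted p = 0.00179), AT1G64380 (-1.81 ± 0.16, 3e-09) and NAC019 (-1.09 ± 0.36, 0.0226) were lower. NAC019 was not called without an3 library 1 (limma adjusted p = 0.128) or library 2 (0.135), nor by edgeR's quasi-likelihood test (adjusted p = 0.0547).

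The comparison of the libraries labelled syd with the mean of the other 10 mutants was chosen after their values were seen. In it 51 members were higher and 4 lower, where 23.4% and 22.4% of all genes tested were called (26.6% and 25.3% of those with a wild-type mean of at least 50). Without syd library 1, 28 were higher and 5 lower, and without syd library 2, 2 were lower. The higher members were led by DDF1 (2.93 ± 0.67, limma adjusted p = 0.00064), RRTF1 (2.82 ± 0.70, 0.0014) and AT4G27657 (2.73 ± 0.41, 2.95e-06). AT4G27657 had 646 normalised reads in syd library 1, against 570, 264 and 413 in wild-type libraries 1 to 3. Without syd library 1 the differences of DDF1, RRTF1 and AT4G27657 were 1.86, 1.65 and 1.70, and RRTF1 was no longer called (limma adjusted p = 0.0889). In DESeq2 on the recovered reads the difference of RRTF1 was 4.26 (adjusted p = 5.53e-06). RLK1, a receptor-like kinase, was lower by 1.87 on the log2 scale (SE 0.45, limma adjusted p = 0.00105), with 20, 3.05 and 6.83 normalised reads in the libraries labelled syd against 89.4, 157 and 84.3 in wild type. AT4G16750 (-0.52 ± 0.18, limma adjusted p = 0.02) and MYB122, a regulator of indole glucosinolates (-0.48 ± 0.18, 0.0316), were not called without syd library 1 or without library 2, and MYB122 also not without library 3.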

How the data were processed

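A BGISEQ500 sequencer gave single 50-bp reads from total RNA of 12-day-old seedlings, per the labels' protocols. HISAT2, edgeR and TAIR10 are named in the submitters' processing notes, without versions. How reads were counted, on which annotation and with which strand setting, is not given in the sources used. The 11 deposited tables hold 66 value columns for 36 distinct libraries. The deposited values are a normalised signal in the form of edgeR pseudo-counts at an equal library size (about 23.1 reads to 1 CPM), and they are called normalised reads here. Inverting that adjustment, with dispersion 0.0127, gave whole reads for 99.999% of 1171728 values, and 11 values missed the tolerance of 1e-04.

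Ratios are of means of 3 deposited values. Differences between mutants were tested with limma 3.58.1 (R 4.3.3), with a trend on log2(value + 1), 1 term per genotype and a filter at a mean value of 1, which left 23297 genes. Fold changes of low genes are understated on this scale. Adjusted p-values are Benjamini-Hochberg values within a contrast, and they measure only the spread between these libraries, which may be technical. The script was checked on simulated data. On the recovered reads, edgeR 4.0.16 (quasi-likelihood) and DESeq2 1.42.0 were alternatives. Other alternatives were another scaling, filter or pseudocount, a fit of only the groups compared, the replicate number as a block and leaving out each library. Figures were drawn with matplotlib 3.10.9.

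The members, gene lists, roles and alternatives were chosen with earlier results of these data known. Named genes were the 12 members with the smallest largest ratio, the 6 with the highest wild-type mean, the 3 most positive and 3 most negative called differences per contrast, list members, neighbours, and the genes at the limit. Those named for other reasons (NAC102, EXLA3 and the 3 genes with no called difference), and the comparison of syd with the other mutants, were chosen after their values were seen. Upstream sequences, symbols and gene structures are from RefSeq's TAIR10.1, while the tables themselves carry locus names and no coordinates. Members on the other lists were MYB122 among 15 glucosinolate genes, CCA1 among 11 cold genes, and NAP and WRKY53 among 8 senescence genes. The lists for heat shock, anthocyanin, auxin, iron, phosphate, nitrate, flowering time, SWI/SNF subunits, photosynthesis and cell wall growth, and the marker lists, held 0 members. The lists are partial: the 2 heat shock factors and 6 cell wall genes counted by role among the members were not on them. Genes with near-identical copies may share reads, which the tables cannot show.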

Additional observations from a re-analysis of the deposited data

Results flagged for a closer look

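Of the largest called differences between mutants among the members, those below drew attention because levels differed between classes or between the libraries labelled with different mutants by a test of the difference itself, limma with Benjamini-Hochberg adjustment. WRKY53 was higher in BAS than in SAS mutants by 1.21 on the log2 scale, and HSFA6A was lower by the difference of -3.07. AT5G46500 was higher in BAS than in MAS mutants by 3.69, and AT5G12340 differed by -1.57. HSFA6A was higher in SAS than in MAS mutants by 2.99, and CAMBP25 differed by -1.20. In the libraries labelled an3, NAP was higher than in the other 10 mutants by 1.65 and HSFA6A differed by -2.50, which was -1.43 with a pseudocount of 5 and -3.78 in DESeq2. In the libraries labelled syd, DDF1 was higher than in the other 10 mutants by 2.93, which was 1.86 without syd library 1, and RLK1 differed by -1.87.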

How the results depend on the processing

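The number of members depended on the limits: 38 genes met the rule at a ratio of at most 0.6, 218 at 0.8, and 55 when every mutant library also had to lie below every wild-type library. It was 70 to 141 when 1 library was left out. Leaving out 1 library gave 14 to 28 members higher and 30 to 43 lower in BAS than in SAS, 38 to 43 higher and 8 to 14 lower in BAS than in MAS, 43 to 57 higher and 7 to 21 lower in SAS than in MAS, 9 to 14 higher and 6 to 17 lower in an3, 28 to 71 higher and 2 to 5 lower in syd, and 96 to 100 that differed among mutants. The extremes came without minu12 library 1 (8), syd library 1 (21, 28 higher in syd), an3 library 1 (6) and syd library 2 (2). With no filter on low values 9 members were lower in BAS than in MAS, and the cause was not tested. In edgeR 16 members were higher and 38 lower in BAS than in SAS, and 67 higher in syd. With the replicate number as a block 20 members were higher and 34 lower in BAS than in SAS, 42 and 14 in BAS against MAS, 48 and 9 in SAS against MAS, 12 and 15 in an3, 52 and 4 in syd, and 99 differed. The numbers did not pair the libraries, since same-number correlations ran from -0.42 to 0.34 with a median of 0. Of the named differences under all alternatives, 943 values kept direction and call, 10 lost the call and 0 reversed. With 3 libraries per genotype and wild-type library 1 and syd library 1 high for many members, values near the limit of 0.7 are the least firm.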
